A study of Saccharomyces cerevisiae with 6 samples.

Results

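The first response to an inducer of HAC1 in meiotic budding yeast was read from 1 pair of poly(A) RNA libraries, collected 1 h after the inducer or its vehicle was added. An ORF was compared when the larger of its 2 values reached 20 RPKM, and 5739 of the 6679 ORFs in the table met that floor. Each was described by its 6 h ratio, log2((inducer + 1)/(vehicle + 1)), where RPKM are reads scaled to ORF length and library size, so that levels can be set side by side between genes.

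The series holds 6 libraries of Saccharomyces cerevisiae SK1, a laboratory strain that sporulates quickly and evenly. The labels give the genotype WT for all 6 libraries. Ethanol (the vehicle) or bEST (named an inducer in the labels) went in 5 h after the cells entered sporulation medium, and 1 library was made per treatment at 6, 6.5 and 7 h. The first of these, 1 h after the addition, is described here, and the others serve for comparison. The design text describes a strong expression of the spliced form of HAC1 in the treated cells from outside its own control. The labels do not name the construct or the promoter that responds to bEST, and bEST was not given to cells without it in the libraries used here, so the effect of the compound and the effect of HAC1 cannot be told apart.

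The product of HAC1 is the transcription factor behind the unfolded protein response of yeast. Its mRNA carries an intron that blocks translation until Ire1, a sensor in the membrane of the endoplasmic reticulum (ER), cuts it out in the cytoplasm. The Hac1 protein then activates genes for chaperones, oxidative folding, glycosylation, vesicle transport and the removal of misfolded proteins, through short promoter elements known as unfolded protein response elements.

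With 1 library a side at 6 h, a ratio has no replicate check and no p-value. The terms higher and lower ORFs stand below for those whose 6 h ratio reached 2-fold. To look for the same ORFs in libraries that had no part in the 6 h ratio, the 4 libraries of 6.5 and 7 h were fitted with limma, and an ORF was called there at an adjusted p under 0.05. The labels do not say that libraries came from separate cultures, or whether the times of a treatment came from 1 culture, so these p-values cover no more than the spread among these 4 libraries, which may be technical. In such bulk samples, fewer cells that express a gene and less RNA per cell cannot be told apart. The recovered depth was 13.3 megareads for vehicle and 9.5 megareads for inducer at 6 h, and a value of 20 in an ORF of 1 kb stood for 85 and 61 reads. The log2 values of the 6 h libraries correlated at r = 0.9727 over the ORFs compared, within the range of 0.9146 to 0.9886 between libraries of the series.

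The labelled cell type was checked against its markers. All 32 early meiotic, 38 middle meiotic and 24 spore wall genes of the lists used here were above the floor at 6 h. SPS1, a kinase of spore formation, stood at 8862 RPKM with vehicle and 9001 with inducer, and NDT80, the activator of the middle meiotic genes, at 2593 and 2509. Markers of other cells were present: the 22 haploid and mating genes summed to 4455 RPKM with vehicle and 4778 with inducer, and the 18 mitotic G1 and daughter-cell genes to 1168 and 1143. None of these genes was at 0 in all 6 libraries. The haploid sum with inducer was just above the range of the 3 vehicle libraries, 4129 to 4711 RPKM, and the mitotic sum was inside theirs, 1000 to 1169 RPKM.

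One hour after the addition, 142 of the 5739 ORFs (2.47%) were at least 2-fold higher with inducer and 26 (0.453%) were at least 2-fold lower. At least 4-fold higher were 29 ORFs and at least 4-fold lower were 3. At least 8-fold higher were 8, and none was 8-fold lower. The median log2 ratio of all ORFs compared was -0.06, and the 5th to 95th percentile ran from -0.55 to 0.64. Past 2-fold the early difference was thus a small tail, mostly of higher ORFs. At 1.5-fold the 2 directions were closer in number, with 331 ORFs higher and 241 lower. For scale, vehicle at 6.5 h against vehicle at 6 h had 23 of 5727 ORFs (0.402%) at least 2-fold higher and 41 (0.716%) lower. The inducer library stood above all 3 vehicle libraries for 140 of the 142 higher ORFs, against 1761 of all 5739. At least 2-fold above each of the 3 were 112 of the 142. Of the 26 lower ORFs, 20 were below all 3 vehicle libraries, against 1293 of all 5739, and 5 were at least 2-fold below each. Both sets were picked against 1 of these 3 libraries, vehicle at 6 h.

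**Figure D1:**
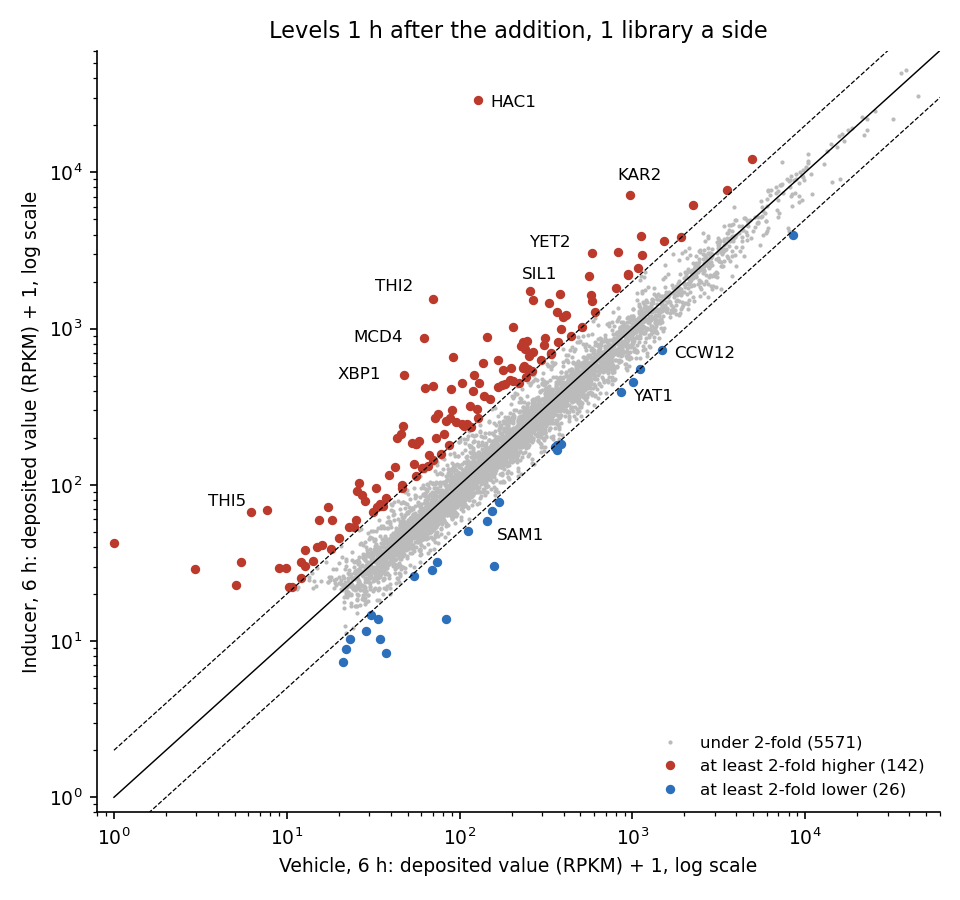
Levels of the 5739 ORFs at 6 h, with vehicle on the x axis and inducer on the y axis (RPKM + 1, log scales), 1 library a side. The solid line marks equal values and the dashed lines 2-fold. The 142 higher ORFs (red) reach much farther from the line than the 26 lower ones (blue), with HAC1 highest at 28926 RPKM.

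HAC1 itself checked the labels. It stood at 127 RPKM with vehicle and 28926 with inducer at 6 h, a log2 ratio of 7.82. In the vehicle libraries of 6.5 and 7 h it was at 128 and 98.4 RPKM, and in the inducer libraries at 48866 and 53257. The 3 vehicle values lay close together, no inducer value came near them, and the first inducer value was the lowest of the 3. The table gives 1 value per ORF, so spliced and unspliced mRNA are not separated. The sensor IRE1 was at 39.7 RPKM with vehicle and 32.7 with inducer, inside the range of the 3 vehicle libraries, and was not called later (adjusted p = 0.729 by limma).

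After HAC1, the largest ratios belonged to a mixed group that was not made up of ER folding genes alone. Of the 20 ORFs with the highest ratios, 6 were in the 10 lists of ER and early secretory genes. THI2, the activator of thiamine synthesis genes, was at 69.4 RPKM with vehicle and 1541 with inducer, a log2 ratio of 4.45. It stayed between 66.7 and 84.5 RPKM over the vehicle libraries and reached 2091 and 2412 in the later inducer libraries. MCD4, which adds ethanolamine phosphate to the glycosylphosphatidylinositol (GPI) anchor, was at 61.4 and 874 RPKM, a log2 ratio of 3.81. XBP1, a repressor induced by stress and starvation that is unrelated to the animal factor of the same name, was at 46.6 and 503 RPKM, a log2 ratio of 3.41. Its later inducer values, 586 and 605 RPKM, were little above the first. The ORF YDR320W-B, which is not in the RefSeq annotation, was listed at 0 in all 3 vehicle libraries and at 41.1 RPKM with inducer at 6 h. Its ratio depends on the 1 added to each value and is not printed. The ORF is nevertheless counted among those at least 8-fold higher. That count also holds YPR159C-A and YLR349W, which rested on 5.25 and 1.96 RPKM with vehicle.

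Of the first 20, 4 more are of separate roles or of none known. DFR1, the dihydrofolate reductase, was at 62.0 RPKM with vehicle and 416 with inducer (log2 ratio 2.73). DOG1, a phosphatase of 2-deoxyglucose 6-phosphate, was at 69.2 and 426 RPKM (log2 ratio 2.60). PSY3, a member of a complex in homologous recombination, was at 204 and 1029 RPKM (log2 ratio 2.33). IRC4 was at 90.5 and 658 RPKM (log2 ratio 2.85). All 4 stood above every vehicle library, and all 4 were called higher later with log2 differences above the 6 h ratio.

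Unfolded protein response elements were looked for in the 300 bases before each start codon. The reference was the S288C genome (RefSeq, R64), which is not the SK1 genome, and 5529 of the ORFs compared had such a window. The core of the element called UPRE-2, TACGTG on either strand, was in 13 of the 26 ORFs at least 4-fold higher (50.0%), in 22 of the 100 that were 2-fold to 4-fold higher and in 466 of all 5529 (8.43%). Among the 20 ORFs at least 2-fold lower it was in 3 (15.0%). ORFs that were under 2-fold at 6 h but called higher later held it in 79 of 553 cases (14.3%). The share was 36.4% of the 33 higher ORFs of the secretory lists, 24.7% of the 93 other higher ORFs and 12.6% of the 167 secretory list members under 2-fold. These shares describe letters in a window and not binding.

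The 13 ORFs at least 4-fold higher that hold TACGTG are shown to let the sites be compared, in order of their 6 h ratio. Each line gives 30 bases 5′ to 3′ on the strand of the gene, from the RefSeq S288C assembly R64, with TACGTG or its reverse complement CACGTA in capitals.
THI2 (chrII:701868-701897, minus strand): atttcatttcacCACGTAtatatatagcct
MCD4 (chrXI:140834-140863, minus strand): atatgttgatgcCACGTAaataatatgtgt
XBP1 (chrIX:177388-177417, minus strand): agcttgtgcgtgTACGTGtgtacacacttc
SIL1 (chrXV:267614-267643, minus strand): atgtgaaaaggcCACGTAaatgatagagca
DFR1 (chrXV:780780-780809, plus strand): gctttgcatcctTACGTGcgtgagatggca
THI20 (chrXV:226336-226365, minus strand): cattctagcagcCACGTAttgtgttgcctt
DOG1 (chrVIII:194813-194842, minus strand): tacgttgccactCACGTAagaagttcaaag
ERO1 (chrXIII:13296-13325, minus strand): aacgatacggagTACGTGtcataaaaactt
YET2 (chrXIII:350104-350133, plus strand): tcttccaaaaaaCACGTAtatatcattgac
ULI1 (chrVI:206405-206434, minus strand): tctccggaggtaTACGTGttgcattttcaa
TAL1 (chrXII:837358-837387, minus strand): tctcgaactcgtcacataTACGTGtacata
ARO5 (chrVII:288328-288357, plus strand): tatgccataataCACGTAacatttttttat
MPD1 (chrXV:853162-853191, minus strand): aattaaaattgaCACGTAaaagttaaataa
Each of the 13 windows of 300 bases held 1 site. The sites began 12 to 278 bases before the start codon, 5 on the strand of the gene and 8 on the other.

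The sites were spread over genes of folding (SIL1, ERO1, MPD1), of GPI anchors (MCD4), of thiamine synthesis (THI2, THI20) and of carbon metabolism (TAL1, DOG1). Another 6 motifs were counted in the same windows on both strands. The UPRE-1 core CAGNGTG was in 9.52% of the higher ORFs, in 2 of the 20 lower ORFs (10.0%) and in 5.68% of all. The E-box CACGTG, which differs from TACGTG in its first letter, was in 2.38% and 3.56%. The stress element AGGGG was in 18.3% and 22.5%, the Gcn4 site TGACTC in 5.56% and 7.96%, and GGCGGC, the core of the early meiotic element URS1, in 3.17% and 5.21%. The Gal4 type of site, CGG and CCG 11 bases apart, was in 1.59% of the higher ORFs and 1.48% of all. The 9 GAL genes, which Gal4 activates, had a median log2 ratio of -0.18 with none past 2-fold.

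The ER and early secretory genes held more of the higher ORFs than any other group of lists used here, 23.2% of the 142. In none of the 40 lists were 91 of the 142, of which 62 have a gene symbol. The 10 lists, from chaperones to retrieval from the Golgi, hold 200 of the ORFs compared. At least 2-fold higher were 33 of them (16.5%, against 2.47% of all), and none was 2-fold lower. Above all 3 vehicle libraries stood 141 of the 200, against 1761 of all 5739 ORFs. The median log2 ratio of the 200 was 0.23 against -0.06 for all ORFs, so most members had moved little at 1 h. All 33 were called higher at 6.5 and 7 h, where 12.0% of all ORFs tested were. In the annotation deposited with the table, the ER was named for 28 of the 99 annotated higher ORFs (28.3%) and for 4.70% of the 4404 annotated ORFs compared. These lists were drawn up with the later response known and are not independent evidence of its direction.

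Chaperones of the ER lumen stood out among the lists, with 9 of 12 at least 2-fold higher and a median log2 ratio of 1.62. KAR2, the ER Hsp70 (BiP), was at 964 RPKM with vehicle and 7190 with inducer, a log2 ratio of 2.90. Its vehicle values at 6.5 and 7 h were 1064 and 798 RPKM and its inducer values 20196 and 23467. The first inducer value was thus far above every vehicle value but well below the later ones. SIL1, the nucleotide exchange factor of Kar2, was at 255 and 1729 RPKM, a log2 ratio of 2.76. The vehicle library of 6 h was the highest of the 3, the lowest being 227 RPKM. The J-domain partners of Kar2 were JEM1 (log2 ratio 2.22), ERJ5 (1.63), SEC63 (1.41) and SCJ1 (1.32). LHS1, the second lumenal Hsp70, had a log2 ratio of 1.61, and FPR2, a prolyl isomerase, 1.94. In the limma fit of the later libraries 10 of the 12 were called higher and none lower, with 12.0% of all ORFs tested called higher and 8.88% lower.

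The 300 bases before KAR2 are shown because they hold the element in which the response was first mapped (chrX:381027-381326, plus strand, RefSeq S288C assembly R64). Capitals mark the UPRE-1 core CAGNGTG, which begins 160 bases before the start codon. TACGTG does not occur in this window.
KAR2: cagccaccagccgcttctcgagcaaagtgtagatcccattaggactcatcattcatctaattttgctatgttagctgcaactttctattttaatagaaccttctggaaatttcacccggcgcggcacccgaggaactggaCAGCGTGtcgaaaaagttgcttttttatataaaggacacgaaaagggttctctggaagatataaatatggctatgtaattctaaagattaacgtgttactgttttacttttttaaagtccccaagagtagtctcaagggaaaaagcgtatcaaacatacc
On the other side of this interval lies TAD2, a subunit of a tRNA deaminase, whose coding region begins 325 bases away in the opposite direction. TAD2 was at 45.8 RPKM with vehicle and 236 with inducer, a log2 ratio of 2.34.

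Such divergent pairs were looked at for all neighbours in the reference. Of 65 divergent neighbours of a higher ORF, 8 were also at least 2-fold higher, against 6 of 100 tandem and 2 of 69 convergent neighbours. The share over all ORFs compared was 2.47%. A pair with both members higher is counted here from each side. As pairs, these were 4 of 1344 divergent, 3 of 2504 tandem and 1 of 1387 convergent pairs. The 4 divergent pairs were TAD2 and KAR2, MUD2 and LHS1, ERJ5 and KEG1, SOH1 and SCS3. ERJ5 and KEG1, an ER membrane protein needed for cell wall glucan, were at 237 and 395 RPKM with vehicle and at 737 and 1177 with inducer. The 202 bases between their coding regions (chrVI:238256-238457, plus strand, RefSeq S288C assembly R64) held 1 TACGTG, in capitals, which lies upstream of both.
ERJ5-KEG1: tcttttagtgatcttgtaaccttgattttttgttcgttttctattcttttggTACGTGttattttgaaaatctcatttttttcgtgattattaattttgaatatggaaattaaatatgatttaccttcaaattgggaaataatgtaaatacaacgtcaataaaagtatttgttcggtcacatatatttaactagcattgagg
MUD2, a splicing factor, was at 119 RPKM with vehicle and 396 with inducer, beside 177 and 543 for LHS1. TACGTG did not occur between TAD2 and KAR2, between MUD2 and LHS1 or between SOH1 and SCS3. The UPRE-1 core occurred between TAD2 and KAR2 and between MUD2 and LHS1. Neither core occurred between SOH1 and SCS3. The median log2 ratio of all divergent neighbours was 0.12, and that of tandem neighbours -0.05.

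Among the enzymes of oxidative folding, 3 of 7 were at least 2-fold higher and the median log2 ratio was 0.68. ERO1, the oxidase that drives disulfide formation, was at 264 RPKM with vehicle and 1533 with inducer, a log2 ratio of 2.53. Its vehicle values ranged from 223 to 264 RPKM. MPD1 and EUG1, relatives of the protein disulfide isomerase, had log2 ratios of 2.07 and 1.92. PDI1 itself, the essential isomerase, was at 1923 and 3056 RPKM, a log2 ratio of 0.67, and MPD2 at 0.68. Both stood above all vehicle libraries and both were called higher later. At 1 h the ratios of PDI1 and MPD2 were thus smaller than those of ERO1, MPD1 and EUG1.

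For entry into the ER, 4 of 27 genes were at least 2-fold higher and the median log2 ratio was 0.18. They were SEC62 (log2 ratio 1.80), SEC63 (1.41), SEC61 (1.27) and SEC66 (1.18). These are some, not all, of the subunits of the channel and of its form for translocation after translation. SEC62 was at 366 RPKM with vehicle at 6 h and at 1277 with inducer, while its 3 vehicle values lay between 234 and 366. Of the 21 genes of ER-associated degradation, 2 were past 2-fold. These were DFM1 and DER1, both rhomboid-like membrane proteins of the exit route, with log2 ratios of 1.92 and 1.57. The ubiquitin ligase HRD1 was at 322 and 579 RPKM, a log2 ratio of 0.85, and its partner USA1 at 0.90. None of the 21 was 2-fold lower, and 8 were called higher later, where 12.0% of all ORFs tested were.

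Glycosylation genes past 2-fold belonged to several steps. In N-glycosylation 4 of 32 were higher: RER2, which makes the dolichol chain, SEC59, the dolichol kinase, and OST2 and SWP1, subunits of the oligosaccharyltransferase. RER2 was at 89.4 RPKM with vehicle and 300.1 with inducer, a log2 ratio of 1.74. ERG20, which makes the farnesyl pyrophosphate from which dolichol is built, was at 149 and 351 RPKM (log2 ratio 1.23). It was the one member of the 29 sterol and isoprenoid genes past 2-fold, and the median of that list was -0.20. PSA1, which makes GDP-mannose, the sugar donor, was at 4937 and 12165 RPKM (log2 ratio 1.30), the second highest inducer level among the higher ORFs after HAC1. DPM1, which makes dolichol phosphate mannose, was just short of 2-fold at 0.99. Of the 6 protein O-mannosyltransferases, PMT2 and PMT1 were past 2-fold (log2 ratios 1.36 and 1.09) and PMT3 and PMT5 were at 0.90 and 0.76. In GPI anchor synthesis, MCD4 was joined by GWT1, the acyltransferase of the inositol ring (log2 ratio 1.72), as 2 of 29.

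Between the ER and the Golgi, 7 of 44 genes of forward transport were at least 2-fold higher. They were the p24 cargo adaptors ERP2, ERV25 and ERP1 (log2 ratios 1.82, 1.22 and 1.18), the cargo receptor ERV29 (576 and 1631 RPKM), the SEC24 relatives SFB3 and SFB2 (1.24 and 1.13) and the SNARE BOS1 (1.01). ERV25 was at 936 RPKM with vehicle and 2189 with inducer. In retrieval from the Golgi, ERD2, the receptor that returns ER proteins by their tail signal, was past 2-fold (801 and 1810 RPKM, log2 ratio 1.17), as 1 of 21. YET2, a yeast relative of the ER protein BAP31, was at 582 and 3045 RPKM, a log2 ratio of 2.39. Its relatives YET3 and YET1 were at 0.66 and 0.31, so the family was split at 1 h, though all 3 stood above every vehicle library.

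The listed genes of ER shape and of phospholipid synthesis were not part of the 2-fold group. None of the 25 list members for ER shape and membrane contacts was past 2-fold in either direction, and their log2 ratios ran from -0.35 to 0.34. RTN1, a reticulon that bends tubules, was at 499 RPKM with vehicle and 524 with inducer, a log2 ratio of 0.07, and was called higher at 6.5 and 7 h (log2 difference 1.33 ± 0.20 SE, adjusted p = 0.0035 by limma). LNP1, at tubule junctions, was at 185 and 192 RPKM. Of 28 genes of phospholipid and inositol synthesis none was past 2-fold, and INO1, the inositol synthase and a known target of the response in growing cells, was at 3109 and 2783 RPKM. The largest ratios in this list were those of SLC1 and DGK1, at 0.80 and 0.77.

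**Figure D2:**
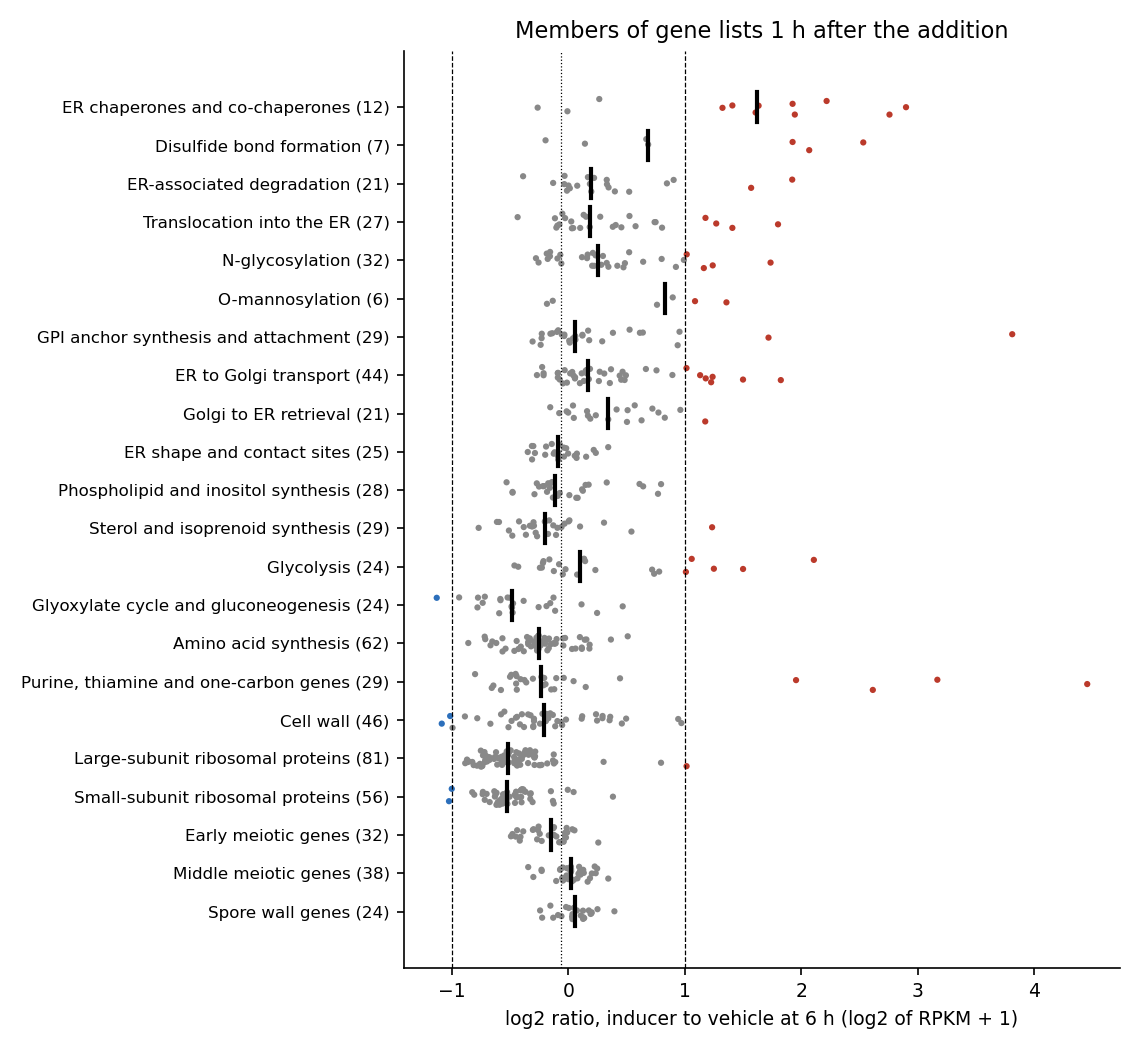
The 6 h log2 ratio of each member (points) of 22 gene lists, with list medians as black bars and the number of members in brackets. Dashed lines mark 2-fold, the dotted line the median of all ORFs compared (-0.06), and points past 2-fold are red or blue. Chaperones stand out as a list, while most other secretory lists have a few members far to the right of their median, and the ribosomal protein lists lie left of the dotted line (against vehicle at 7 h in place of 6 h their medians were above 0).

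Outside the secretory pathway, several metabolic genes were among the early higher ORFs. In the list of purine, thiamine and one-carbon genes, 4 of 29 were at least 2-fold higher although the list median was -0.23. Beside THI2 these were THI20, a kinase of the thiamine pyrimidine precursor (143 and 880 RPKM, log2 ratio 2.61), THI5, which makes that precursor (6.64 and 67.6 RPKM, log2 ratio 3.17), and FCY21, a putative permease (log2 ratio 1.95). THI5 belongs to a family of near-identical copies, and its vehicle value rested on 29 reads, so its level is uncertain. Of the 24 glycolysis genes, 5 were past 2-fold: the activator TYE7 (102 and 444 RPKM, log2 ratio 2.11) and the enzymes ENO2 (198 and 561 RPKM), TPI1, TDH2 and PGK1 (log2 ratios 1.25, 1.06 and 1.01). The enzyme genes also moved with time in vehicle alone. PGK1 was at 509, 1222 and 701 RPKM in the vehicle libraries of 6, 6.5 and 7 h, so its 1024 RPKM with inducer at 6 h was inside the vehicle range. TYE7 stayed between 99.3 and 110 RPKM in vehicle, and all 5 were called higher later.

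Of the 26 genes of sulfate and methionine synthesis, 3 were at least 2-fold higher and 2 lower, with 18 below 0 and a median log2 ratio of -0.23. STR2, cystathionine gamma-synthase, was at 225 RPKM with vehicle and 769 with inducer (log2 ratio 1.77), and MET17, which makes homocysteine from sulfide, was at 128 and 268 (log2 ratio 1.06). The third was SUL1, a sulfate permease, at 85.6 and 178 RPKM (log2 ratio 1.05). MET6, the methionine synthase, was at 168 and 76.6 RPKM (log2 ratio -1.12), and SAM1, an S-adenosylmethionine synthetase, at 143 and 57.5 (log2 ratio -1.30). Both lower genes lay under all 3 vehicle libraries, whose lowest values were 110 and 86.1 RPKM. All 5 were called in the same direction later. SAM1 has a close paralog, SAM2, and how shared reads of the pair were assigned is not stated. MET17 overlaps the neighbouring YLR302C by 12 bases.

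AMN1, an antagonist of mitotic exit, was the one gene of the mitotic G1 and daughter-cell list at least 2-fold higher (42.1 and 198 RPKM, log2 ratio 2.21). PST1, a cell wall protein, was the one that was 2-fold lower. The other 10 of the 12 members above the floor were under 2-fold and the list median was 0.01, while the summed level of the list was nearly equal in the 6 h libraries, as given above. The part of such cells in the AMN1 ratio was not tested. Other single genes of known role among the higher ORFs were TAL1, the transaldolase (330 and 1447 RPKM, log2 ratio 2.13), PEX18, a peroxisome import factor (2.21), TSA1, the main cytosolic peroxiredoxin (1.47), and ULI1, a gene of the unfolded protein response (2.15).

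The 26 lower ORFs were fewer and nearer to the threshold. Their median log2 ratio was -1.16, and the median of the higher ORFs was 1.42. The 4 lowest, YBL039C-A, YPR160W-A, YOR008W-B and YEL008C-A, are not in the RefSeq annotation, and 11 of the 26 were either absent from it or shorter than 300 coding bases, as were 26 of the 142 higher ORFs. Reads could be recovered for the 20 lower and 127 higher ORFs with a RefSeq length, and fewer than 30 stood on the smaller side for 6 and 11 of these. Of the 5 ORFs at least 2-fold below each vehicle library, FIT2 was the one with a known role, a cell wall mannoprotein that retains siderophore iron. It was at 153 RPKM with vehicle and 67.3 with inducer (log2 ratio -1.17), against 217 and 171 RPKM in the later vehicle libraries.

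Of the 26 lower ORFs, 15 have a gene symbol, and they are of mixed roles. Of the 46 cell wall genes compared, PST1 and CCW12 were at least 2-fold lower and none was 2-fold higher. The median log2 ratio of that list was -0.21, and 34 were below 0. At 6.5 and 7 h, 17 of them were called lower and 6 higher, where 8.88% and 12.0% of all ORFs tested were. GAP1, the general amino acid permease, was at 365 RPKM with vehicle and 167 with inducer (log2 ratio -1.13), and MEP2, an ammonium permease, at 365 and 178 (log2 ratio -1.03). In vehicle, GAP1 was at 169 and 197 RPKM at 6.5 and 7 h and MEP2 at 116 and 141, so both inducer values were close to or inside the range of vehicle over time. YAT1, a carnitine acetyltransferase, was at 854 and 390 RPKM (log2 ratio -1.13), and its vehicle value at 7 h was 340, below the inducer value. CCW12, an abundant wall protein, was at 1479 and 731 RPKM (log2 ratio -1.02), under all 3 vehicle values. SRX1, the sulfiredoxin that repairs oxidised Tsa1, was at 112 and 49.5 RPKM (log2 ratio -1.16), also under all 3. YAT1 and CCW12 were called lower later, while GAP1, MEP2 and SRX1 were not. The named ORF JIP3 overlaps MID2 on the opposite strand by 371 bases and RFU1, an inhibitor of a deubiquitinase, rested on 14 reads with inducer.

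**Figure D3:**
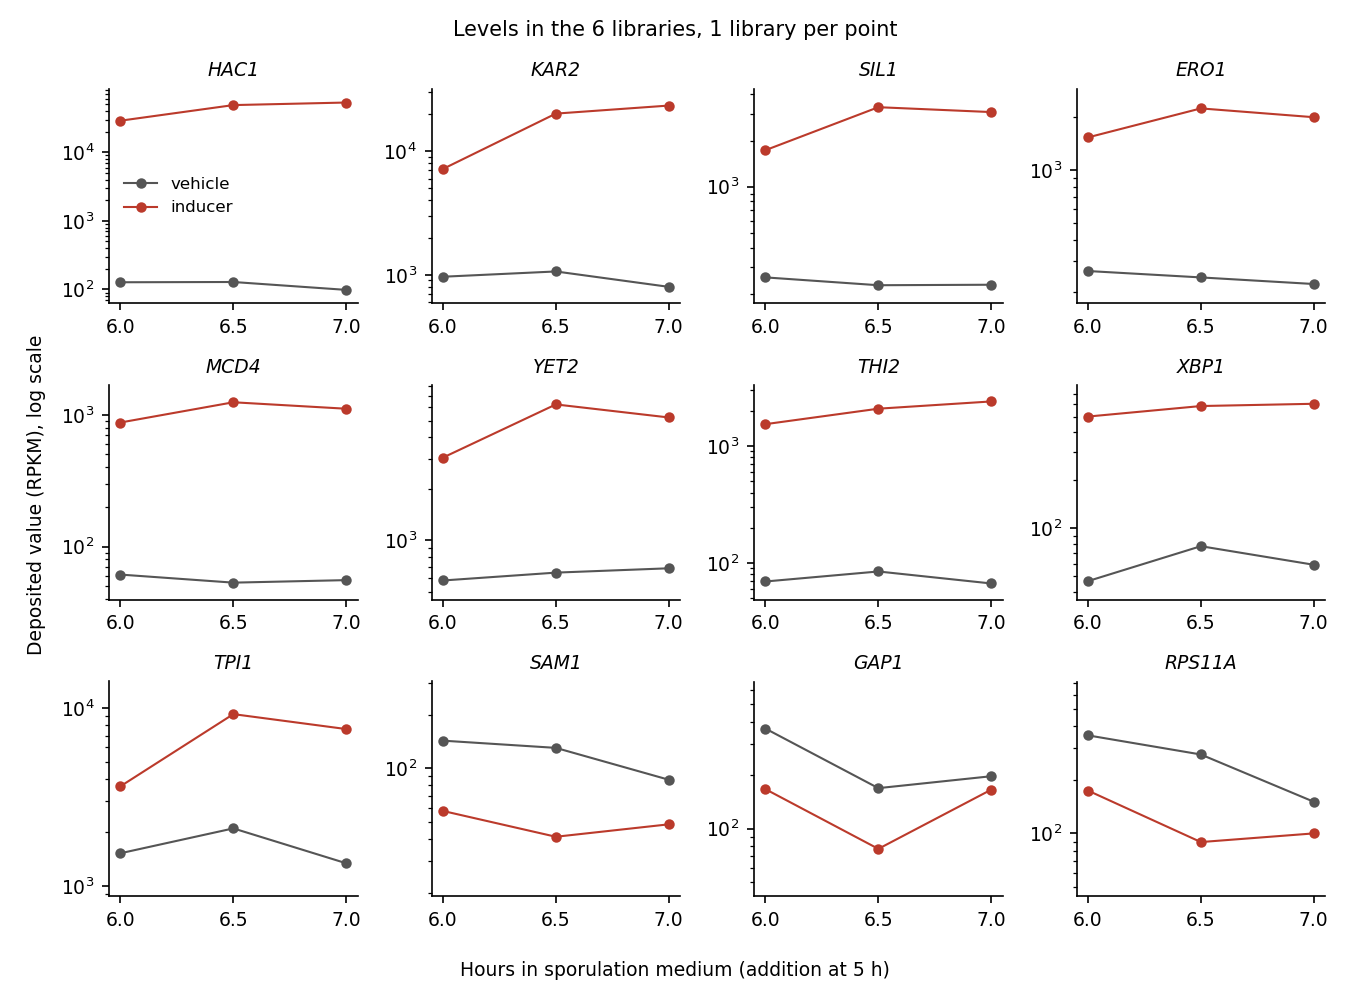
Levels of 12 genes in all 6 libraries (RPKM, log scale) against hours in sporulation medium, with vehicle in grey and inducer in red, 1 library per point. In HAC1, KAR2, SIL1, ERO1, MCD4, YET2, THI2 and XBP1 the inducer value at 6 h lies far above all vehicle values. In GAP1 and RPS11A the vehicle line falls with time to or near the first inducer value.

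Small shifts of whole lists were seen below the 2-fold line. The 81 genes of the large and 56 of the small ribosomal subunit had median log2 ratios of -0.52 and -0.53, and 132 of these 137 were below 0, whereas against vehicle at 7 h 132 were above 0. At least 2-fold lower were RPS11A and RPS21B, and RPL41B alone was 2-fold higher. The inducer value at 6 h was inside the range of the 3 vehicle libraries for 127 of the 137. Relative to vehicle at 6 h, their medians in vehicle at 7 h were -0.93 and -0.93. The direction of the 6 h shift thus turned with the hour of the vehicle library it was set against. With inducer and vehicle of the same hour, the medians were below 0 at the later times too. They were -0.78 and -0.78 at 6.5 h and -0.22 and -0.23 at 7 h. Called lower later were 26 of the 81 and 19 of the 56, and called higher 1 and 3. Of all ORFs tested, 8.88% were called lower and 12.0% higher. Ribosomal proteins come in near-identical pairs, and single members are uncertain.

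Genes of acetate use had a like pattern. The 24 genes of the glyoxylate cycle and gluconeogenesis had a median log2 ratio of -0.49, and 21 were below 0. MDH2, the cytosolic malate dehydrogenase, was at 8087 RPKM with vehicle and 4219 with inducer (log2 ratio -0.94), with 3744 and 3805 RPKM in the later vehicle libraries. The list median in vehicle at 6.5 and 7 h was -0.51 and -0.55 relative to 6 h, about that of the first inducer library. Of the 24, 18 lay inside the vehicle range at 6 h. At 6.5 and 7 h, 13 were called lower, where 8.88% of all ORFs tested were. Amino acid synthesis genes had a median of -0.26 with none of 62 past 2-fold, and their activator GCN4 was at 4431 and 2893 RPKM (log2 ratio -0.61), inside the vehicle range. The 5 mitochondrially encoded genes above the floor had a median of 0.78 at 6 h, 1.07 at 6.5 h and -0.63 at 7 h. Yeast mitochondrial transcripts carry no poly(A) tail, and how the poly(A) selection bears on these values was not tested.

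Cytosolic chaperones and heat shock genes did not share the pattern of the ER chaperones. Of their 27 members none was past 2-fold, the median log2 ratio was -0.24, and 23 lay below all 3 vehicle libraries, against 1293 of all 5739 ORFs. Relative to vehicle at 6 h, the list median in vehicle was 0.42 at 6.5 h and -0.07 at 7 h. At 6.5 and 7 h, 2 members were called higher and 8 lower, where 12.0% and 8.88% of all ORFs tested were. Of the 35 general stress genes, 20 were likewise below all 3 vehicle libraries, while XBP1 was the one past 2-fold, and 6 were called higher later and 5 lower, shares near those of all ORFs.

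The meiotic lists had medians near that of all ORFs at 1 h. The median log2 ratio was -0.15 for 32 early meiotic genes, 0.02 for 38 middle genes and 0.06 for 24 spore wall genes, and none of the 94 was past 2-fold. Among early genes 29 of 32 were nevertheless below 0. IME1, the inducer of meiosis, was at 2063 RPKM with vehicle and 1465 with inducer (log2 ratio -0.49), and RIM4, an RNA-binding translational regulator, at 2505 and 1795 (log2 ratio -0.48). Both lay under all 3 vehicle libraries, the lowest of which held 1746 and 1941 RPKM. At 6.5 and 7 h the early list had medians of -0.65 and -0.91. Of the 32, 22 were called lower there, where 8.88% of all ORFs tested were. ZIP1, of the synaptonemal complex, was at 605 and 502 RPKM, and CLB3, a meiosis II cyclin, at 1618 and 1707. DIT1, a late gene of the spore wall, was at 200 and 263 RPKM at 6 h and at 1407 and 1435 at 7 h, so its level was higher at 7 h in both treatments.

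**Figure D4:**
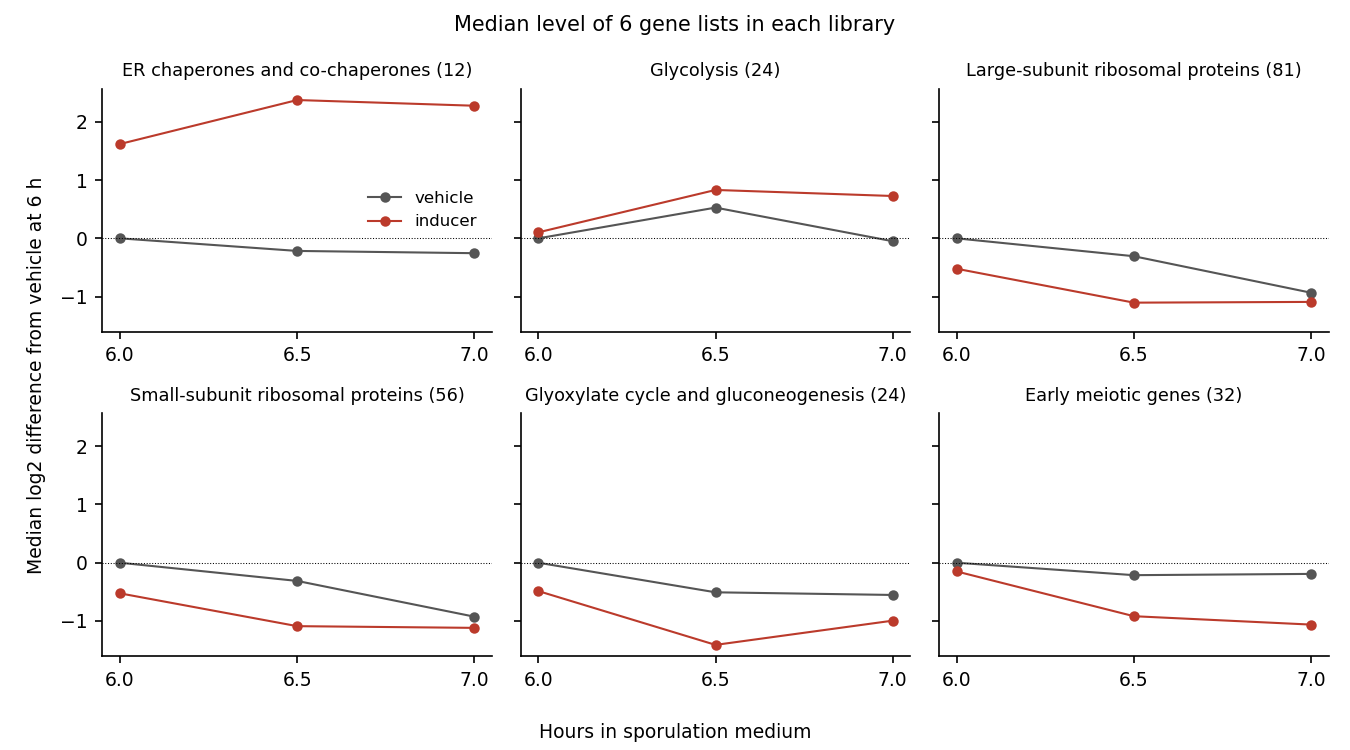
Median log2 difference of 6 gene lists from vehicle at 6 h, in each library, against hours in sporulation medium (vehicle grey, inducer red, number of members in brackets). The chaperone list is apart from vehicle at every hour. In both ribosomal protein lists the vehicle median declines to -0.93 at 7 h, below the inducer median of 6 h.

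The early higher ORFs were found again in the libraries of 6.5 and 7 h. In the limma fit of those 4 libraries, 130 of the 142 were called higher and none lower, with 723 of 6025 ORFs (12.0%) called higher in all. Their median log2 ratio was 1.42 at 6 h, 2.21 at 6.5 h and 2.46 at 7 h. At both later times, 126 were again at least 2-fold higher and 120 were farther from vehicle than at 6 h. At 16 of the 142, among them XBP1, both later ratios were smaller than the first. Among the 12 not called, YPR159C-A rested on 1 read with vehicle, MIN3 and YOR032W-A on 14 each, and RPL41B, at 1.01 at 6 h, was at -0.77 at 6.5 h. None of the 12 was in the ER and secretory lists. At 28 of the 29 ORFs that were at least 4-fold higher the later call was made.

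The lower ORFs were found again less completely. Of the 26, 12 were called lower at 6.5 and 7 h, 1 was called higher and 13 were not called, with 535 of 6025 ORFs (8.88%) called lower in all. Their median log2 ratio was -1.09 at 6.5 h and -0.52 at 7 h, and 3 of the 26 were at least 2-fold lower at both. Called lower were, beside ORFs named above, PRM7, a pheromone-regulated protein (72.7 RPKM with vehicle and 31.1 with inducer at 6 h), DPI8 (1007 and 453 RPKM) and YDR524C-B. The last, an ORF of 201 coding bases, was at 8489 and 3974 RPKM, the highest levels among the lower ORFs. Its inducer value lay below all 3 vehicle libraries.

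**Figure D5:**
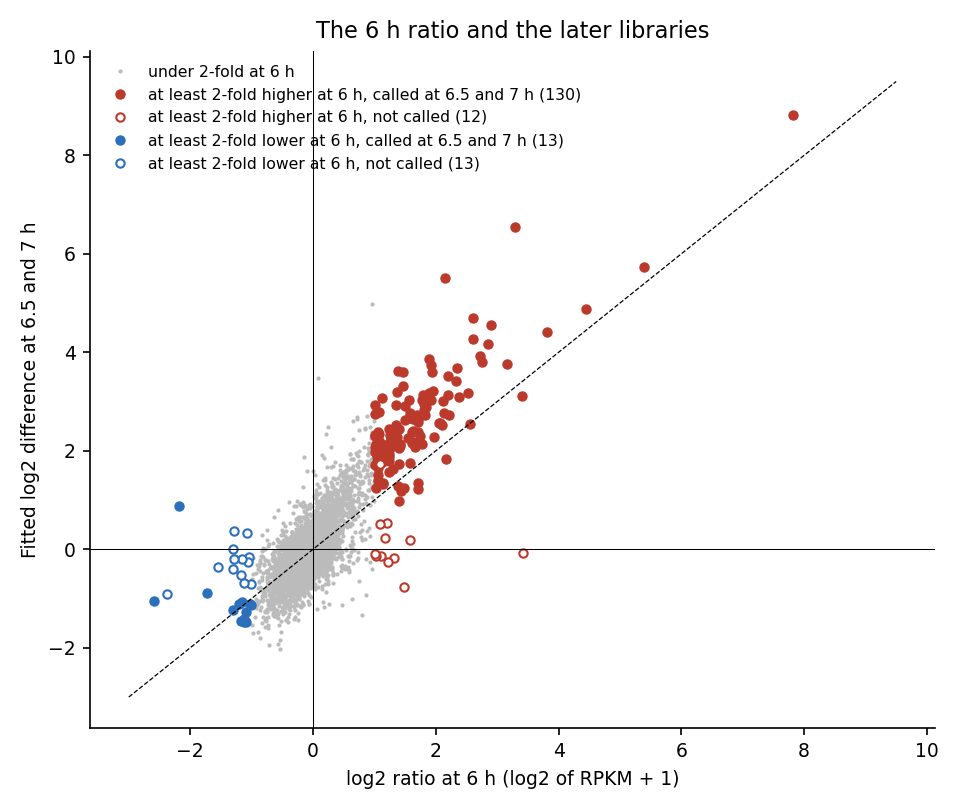
The 6 h log2 ratio (x axis) against the fitted log2 difference at 6.5 and 7 h (y axis) for all ORFs compared. Filled red and blue points were called in the later libraries and open ones were not, and the dashed line marks equal values. Most of the 142 higher ORFs lie above the dashed line, and many lower ORFs lie near 0 on the y axis.

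The early set was smaller than those of the later hours. At 6.5 h, 392 of 5746 ORFs (6.82%) were at least 2-fold higher and 290 (5.05%) at least 2-fold lower, and at 7 h these were 494 (8.63%) and 129 (2.25%) of 5724. Of the 706 ORFs called higher later that were compared at 6 h, 130 (18.4%) had been past 2-fold at 6 h, and 670 had a ratio above 0, with a median of 0.45. Of the 394 that were both called and at least 2-fold higher later, 129 had been past 2-fold at 6 h. Of the 533 called lower later, 12 had been past 2-fold and 517 were below 0, with a median of -0.39. SEC53, the phosphomannomutase that feeds GDP-mannose synthesis, chosen after its values were seen, was at 1167 and 2150 RPKM at 6 h (log2 ratio 0.88) and at 988 and 7004 RPKM at 7 h. Whether the inducer effect itself changed over the 3 times was tested with the interaction of treatment and hours over all 6 libraries, and limma called 0 of 6025 ORFs, the smallest adjusted p being 0.0857. A fit of the 6 h pair against the other pairs called 3. Without adjustment, 714 ORFs had a p under 0.05, and among the 142 higher ORFs 75 did, 71 of them with an effect that grew. The 6 h pair that picked the 142 also entered this fit, so these unadjusted counts are no independent test of growth.

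The threshold cut through a continuous range. Just inside it were YMR187C, CYC2 and PGK1 at log2 ratios of 1.01, and just outside were PDR16 at 0.997, RAD55 at 0.99 and DPM1 at 0.99. On the lower side, RPS21B, CCW12 and RPS11A were just inside at -1.002, -1.02 and -1.03, and UTR2, YLR342W-A and TOS6 just outside at -0.995, -0.99 and -0.98.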

How the data were processed

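Per the labels' protocols, poly(A) RNA was sequenced from directional libraries as 50 bp single reads. The submitters' processing notes name TopHat, Bowtie2 and SAMtools. No version, build, annotation or strand setting is stated there, so overlapping or near-identical ORFs are uncertain. The authors deposited 1 table of RPKM for 6679 ORFs. The unit was read from the values: 78.7 to 81.5% of low values were whole reads within 0.02 once 60 bases were taken from the coding length. These reads, 6.0 to 21.7 megareads a library, describe depth only, and cover counting error only. Names came from RefSeq R64 (5994 ORFs matched, 685 did not), and 0 columns belonged to unmapped samples.

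At 6 h, log2(value + 1) was compared with a floor of 20 on the larger value, which left out 940 ORFs. The pseudocount understates the ratio of low ORFs. Vehicle and inducer at 6.5 and 7 h were fitted with limma-trend (limma 3.58.1, R 4.3.3) on log2(value + 1) with time as a factor, for the 6025 ORFs with a mean of at least 5. This fit has 1 residual degree of freedom beside a prior of 6.7, and Benjamini-Hochberg adjustment was over all 6025. In simulated data the fit recovered changed genes, with false calls above the nominal share in most runs, so the later calls may hold more false ones than their threshold states. The interaction used all 6 libraries.

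The members and the 40 lists (1020 entries by symbol, 3 not found) were chosen with earlier results of these data known. Open to naming by rule were HAC1, the 20 highest and 20 lowest ratios, up to 4 members of each list and 16 fixed markers. The rule also took 3 ORFs on each side of the threshold. Not all of these ORFs are named in the text. Any other name was chosen after its value was seen. Alternatives covered pseudocounts, floors, scalings, the vehicle library used as reference and the terms of the fits. Python 3.11.15, numpy 2.4.6, pandas 2.3.3 and matplotlib 3.10.9 were used.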

Additional observations from a re-analysis of the deposited data

Results flagged for a closer look

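For 4 ORFs past 2-fold at 6 h the log2 ratio had the opposite sign at both later times. The interaction of treatment and hours, fitted with limma over all 6 libraries, called none of them, with unadjusted and adjusted p of 0.060 and 0.449 for MIN3, 0.0090 and 0.255 for YOR008W-B, 0.243 and 0.681 for YLR437C-A and 0.0177 and 0.301 for YMR082C. These 4 ORFs were picked by the same values that enter the fit, so its unadjusted p-values are no independent evidence of a reversal. MIN3 was at 1.48 at 6 h, -1.28 at 6.5 h and -0.25 at 7 h. YOR008W-B was at -2.18, then 1.04 and 0.72. YLR437C-A was at -1.29, then 0.29 and 0.45. YMR082C was at -1.07, then 0.04 and 0.63. MIN3 rested on 14 reads with vehicle and YMR082C on 24 reads with inducer at 6 h, and the other two are not in the RefSeq annotation.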

How the results depend on the processing

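The count of 142 higher ORFs was within 1.5 times under 10 of 13 alternatives. It was 223 with no floor, 229 against vehicle at 6.5 h and 220 against vehicle at 7 h, with 142, 118 and 126 of the first ORFs kept. The count of 26 lower ORFs was 56 with a floor of 5, 14 with a floor of 100, 100 with no floor, 71 against vehicle at 6.5 h and 15 among RefSeq ORFs of at least 300 coding bases, an alternative added after the data were seen. Of the 26, 14 were kept against vehicle at 6.5 h and 6 against vehicle at 7 h. Against the mean log2 of the vehicle libraries the count was 23, but 8 of the 26 were kept. With no filter on low values the later fit called 0 ORFs higher and 0 lower, and so 0 of the early ORFs in either direction. The cause was not tested. Upper-quartile scaling gave 908 ORFs lower later in place of 535. Testing the 6 h pair against the other pairs called 3 ORFs in place of 0. Other counts moved by less than 1.5 times. Of 199 single genes, 21 changed sign against vehicle at 6.5 h, 36 against vehicle at 7 h, 7 against the mean of the vehicle libraries and 1 with ratios centred on the median. Past 2-fold among these were, against vehicle at 7 h, YAT1 (0.19), RPS11A (0.21) and RPS21B (0.17), and against vehicle at 6.5 h PGK1 (-0.25) and YLR437C-A (1.04). Of the other values of single genes, 1366 stayed within 1 SD of the log2 differences between vehicle at 6.5 and 6 h, 0.32, and 221 did not. Of the list medians 452 stayed within it and 28, all with another vehicle reference, did not. Against vehicle at 7 h the median of all ORFs shifted by 0.19. No replicate could be left out, since each treatment and time has 1 library. The labels give no replicate numbers to pair, and the later fit pairs the treatments by hour through its time term. Without that term 774 ORFs were called higher and 534 lower. A ratio at 20 RPKM in a short ORF rests on few reads, which limits the lower ORFs most.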
